A study of Mus musculus with 9 samples.

Results

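The Slc25a genes encode the mitochondrial carrier family, and they were followed here in ovulated mouse oocytes at metaphase of the second meiotic division (MII). Members were chosen by name, as every gene symbol in the tables that starts with Slc25a. The tables held 47 such genes among 24736. Of these, 37 had enough counts to be tested and 10 did not.

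RNA was measured in 9 libraries from female ICR mice, an outbred stock, with 15 oocytes in each library and 1 mouse per library according to the labels. The 3 control mice had no treatment. The 3 stress mice went through a chronic unpredictable mild stress model for 6 weeks, and the 3 KYZY mice went through 6 weeks of the same model and then were gavaged for 4 weeks with 0.1 ml a day of a decoction of Kai Yu Zhong Yu, a herbal recipe. All 9 mice were labelled 4 to 5 weeks old, with no word on whether this was the age at the start or at collection. Ovulation was induced in all mice with PMSG (7.5 IU) followed by hCG (7.5 IU), and oocytes were collected 16 hours after hCG and stripped of their cumulus cells with hyaluronidase. The labels name no stressed group that was kept for the extra 4 weeks without the recipe, and they describe another sequencing instrument for the KYZY libraries. The recipe, the extra time and the sequencing therefore cannot be told apart in any comparison with KYZY.

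Carriers of this family sit mostly in the inner mitochondrial membrane, where each moves a particular metabolite, nucleotide, amino acid or cofactor between the cytosol and the matrix. They are made in the cytosol and inserted by a dedicated import route, and a few members lie in the outer membrane or in peroxisomes. The MII oocyte depends on mitochondrial ATP for its spindle and for early cleavage, and it runs on stored transcripts because transcription is largely silent at this stage.

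Total counts ran from 46324094 to 106990821 per library, and a gene at 0 had a detection floor of 0.105 to 0.245 CPM (a gene's count relative to the scaled library total, in the usual unit). All 12 oocyte markers were above 0 in every library, at a summed 21005 to 39700 CPM. Summed cumulus and granulosa markers, of which 21 were measured, stood at 357 to 686 CPM in control 3, KYZY 2 and KYZY 3 and at 19.9 to 75.4 CPM in the other 6 libraries. Of these markers 17 to 19 were above 0 in the 3 high libraries and 6 to 17 in the others. The most abundant by its mean was Cyp11a1, at 228, 165 and 428 CPM in control 3, KYZY 2 and KYZY 3, and Areg and Pgr were at 0 throughout. Not all markers followed this split. Cyp19a1 had 11.0 CPM in control 1 and 11.4 CPM in control 3, and Nr5a2 was lowest in control 3 and KYZY 3, at 7.25 and 7.43 CPM. In control 1 both stood above Cyp11a1, with 11.1 CPM for Nr5a2 against 0.479 CPM. The 9 blood and immune markers, led by Lyz2 with 58.1 CPM in KYZY 2, summed to 9.84, 62.3 and 12.4 CPM in control 3, KYZY 2 and KYZY 3 and to 0.446 to 2.58 CPM in the other 6 libraries. The globin genes Hbb-bs and Hbb-bt were at 0 in all. Markers of stroma and endothelium, also 9, summed to 62.7 CPM in control 3 and 73.0 CPM in KYZY 3, and to 20.1 to 30.7 CPM in the other 7 libraries, KYZY 2 among them. The 7 markers of oviduct epithelium summed to 287, 346 and 265 CPM in control 3, KYZY 2 and KYZY 3 and to 336 to 501 CPM in the other 6 libraries. Of these 7, 5 to 6 were above 0 in control 3, KYZY 2 and KYZY 3 and 2 to 4 in the others. In libraries made from whole samples, fewer cells of a type and less RNA per cell cannot be told apart.

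Taken over all 9 libraries, 33 of the 47 carriers were above 0 in every library. Their summed level was 886 to 1087 CPM, or 0.0756% to 0.116% of all counts. A few carriers held most of this. On the scale of CPM per kb of merged exon, which allows genes of different length to be compared, the leading 5 genes held 62.9% of the family's summed level and the leading 10 held 83.0%.

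Slc25a48, known as a mitochondrial choline importer, had the highest mean level, 61.0 CPM per kb, and was first in all 9 libraries. Slc25a31, the ADP/ATP carrier of germ cells (ANT4), followed at 40.2 CPM per kb. Slc25a5, the widely expressed ADP/ATP carrier ANT2, stood at 32.1 CPM per kb. The ornithine carrier Slc25a15 and the citrate carrier Slc25a1 came next and could not be ordered, at 25.1 and 25.0 CPM per kb, with Slc25a15 higher in 5 of 9 libraries. Slc25a31 was above Slc25a5 in 6 of 9 libraries, so the order of this pair was not stable either. When length was taken from the longest transcript in place of merged exons, Slc25a48 stayed first at 61.0 CPM per kb, and Slc25a5 moved ahead of Slc25a31, at 42.6 against 40.2 CPM per kb.

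**Figure D1:**
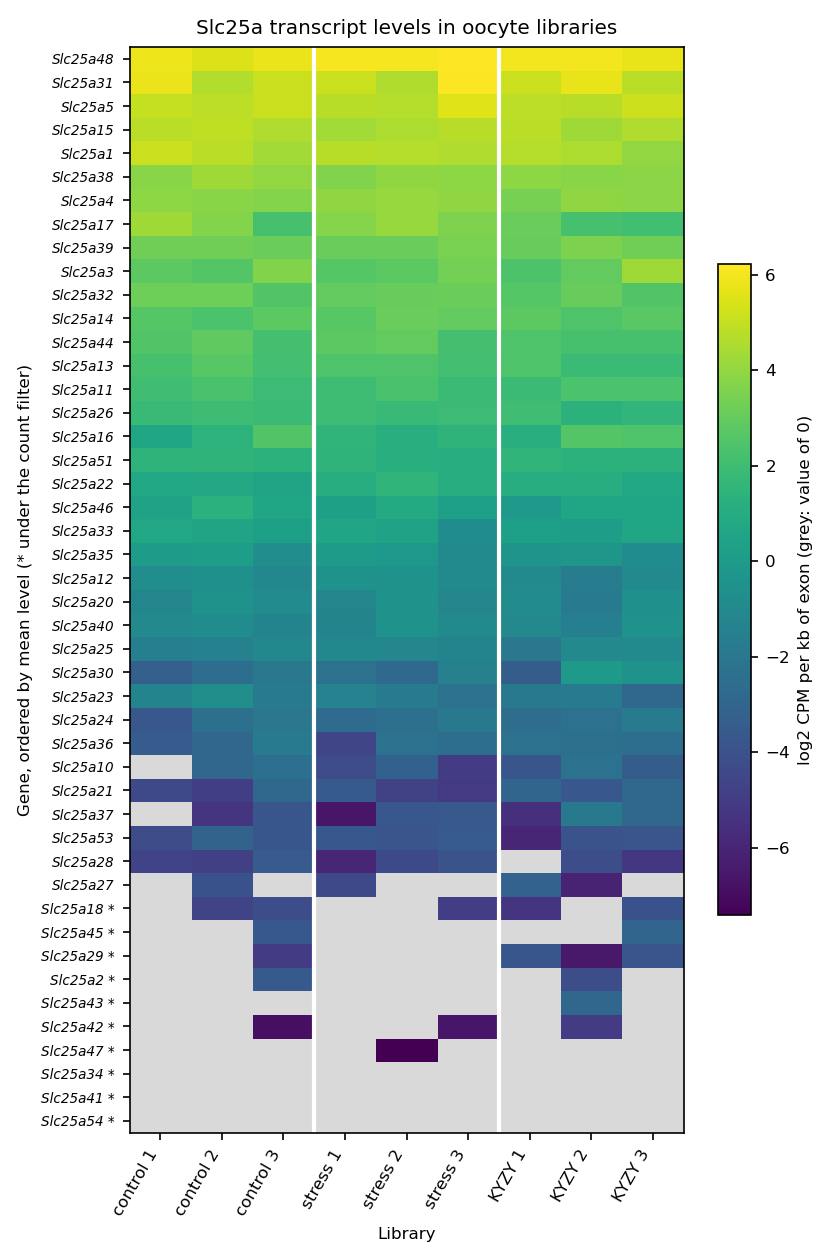
Levels of the Slc25a genes described here (rows, ordered by mean level) in the 9 libraries (columns), as log2 CPM per kb of merged exon on a colour scale, with values of 0 in grey and genes under the count filter marked by an asterisk. Slc25a48 is the top row in all 9 libraries, and the 10 untested genes at the bottom are mostly grey.

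Both leading genes have a CpG-bearing stretch before their annotated start. Slc25a31 in particular is known as a gene with a CpG-rich promoter that is methylated outside germ cells. The 250 bases before each start are shown 5′ to 3′ on the plus strand, from RefSeq on GRCm38.p6, with each CG pair in capitals, as the sequence context of the 2 carriers with the highest level per kb. They lie at chr13:56438105-56438354 for Slc25a48 and at chr3:40708621-40708870 for Slc25a31.
Slc25a48: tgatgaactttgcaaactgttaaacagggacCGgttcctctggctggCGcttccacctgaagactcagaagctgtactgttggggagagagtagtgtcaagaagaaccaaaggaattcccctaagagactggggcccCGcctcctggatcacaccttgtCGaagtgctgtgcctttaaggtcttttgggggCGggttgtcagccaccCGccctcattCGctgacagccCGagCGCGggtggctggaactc
Slc25a31: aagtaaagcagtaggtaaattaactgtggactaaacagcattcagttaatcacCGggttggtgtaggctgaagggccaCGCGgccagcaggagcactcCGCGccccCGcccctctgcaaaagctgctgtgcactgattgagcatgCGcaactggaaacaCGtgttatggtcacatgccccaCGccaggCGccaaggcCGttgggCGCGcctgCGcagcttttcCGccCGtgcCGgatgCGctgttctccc
In the full 300-base window, which runs 50 bases past the start, Slc25a48 held 14 CpG and Slc25a31 held 22. RefSeq gave 46 such windows for 36 of the 47 members, with a median of 15 CpG, against a median of 7 over 32851 windows of all genes. The letters TTCCCGC, an E2F-type motif searched on both strands, occurred in 2 of the 46 windows (4.348%) and in 4.6% of all windows. One of the 2 was that of Slc25a31, where the match starts 19 bases after the annotated start, outside the stretch shown. No methylation or binding was measured in these oocytes.

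No Slc25a gene passed the test in any comparison. The test was edgeR's quasi-likelihood test at an adjusted p under 0.05, and it called 0 of 13890 genes (0%) in stress against control, 0 (0%) in KYZY against stress and 0 (0%) in KYZY against control. The 3 comparisons share their groups. The lowest adjusted p among the carriers was 1.00 in stress against control, 0.935 in KYZY against stress and 0.996 in KYZY against control. DESeq2's Wald test called 22, 13 and 1 genes in these comparisons, and 0 of them were Slc25a genes.

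In stress against control the 37 tested carriers had a median log2 fold change of -0.03, and the median over all genes tested was also -0.03. The estimate was higher in stress for 16 carriers and lower for 21. At an unadjusted p under 0.05 there was 1 carrier (Slc25a22), where 2.69% of all genes were called. The libraries of the 2 groups did not overlap for 3 carriers (Slc25a22, Slc25a48 and Slc25a4, all higher in stress), where 7.88% of all genes did not overlap. The libraries were also read within same-numbered control and stress libraries, a pairing that the labels do not state. In all 3 pairs 7 of the 37 carriers were higher in stress (10.9% of all genes). They were Slc25a4, Slc25a12, Slc25a14, Slc25a22, Slc25a37, Slc25a44 and Slc25a48. For Slc25a4, Slc25a22 and Slc25a48 this would hold under any pairing, because their groups did not overlap. Another 7 were lower in all 3 pairs (12.3% of all genes), among them Slc25a11, Slc25a23, Slc25a33, Slc25a35, Slc25a38 and Slc25a46.

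In KYZY against stress the median of the carriers was -0.10, beside 0.01 over all genes. The estimate was higher in KYZY for 14 and lower for 23. Again 1 carrier (Slc25a17) was under an unadjusted p of 0.05, with 3.98% of all genes called. The groups did not overlap for 2 tested carriers (Slc25a17 and Slc25a48, both lower in KYZY), with 9.19% of all genes in that state.

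In KYZY against control the median of the carriers was -0.04, beside -0.0032 over all genes, with 17 higher and 20 lower in KYZY. Slc25a30 was the 1 carrier under an unadjusted p of 0.05, with 2.74% of all genes called. The libraries overlapped for every tested carrier, and 7.23% of all genes did not overlap. The median standard error of a carrier's log2 fold change in stress against control was 0.32, so that the data could not resolve small differences.

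**Figure D2:**
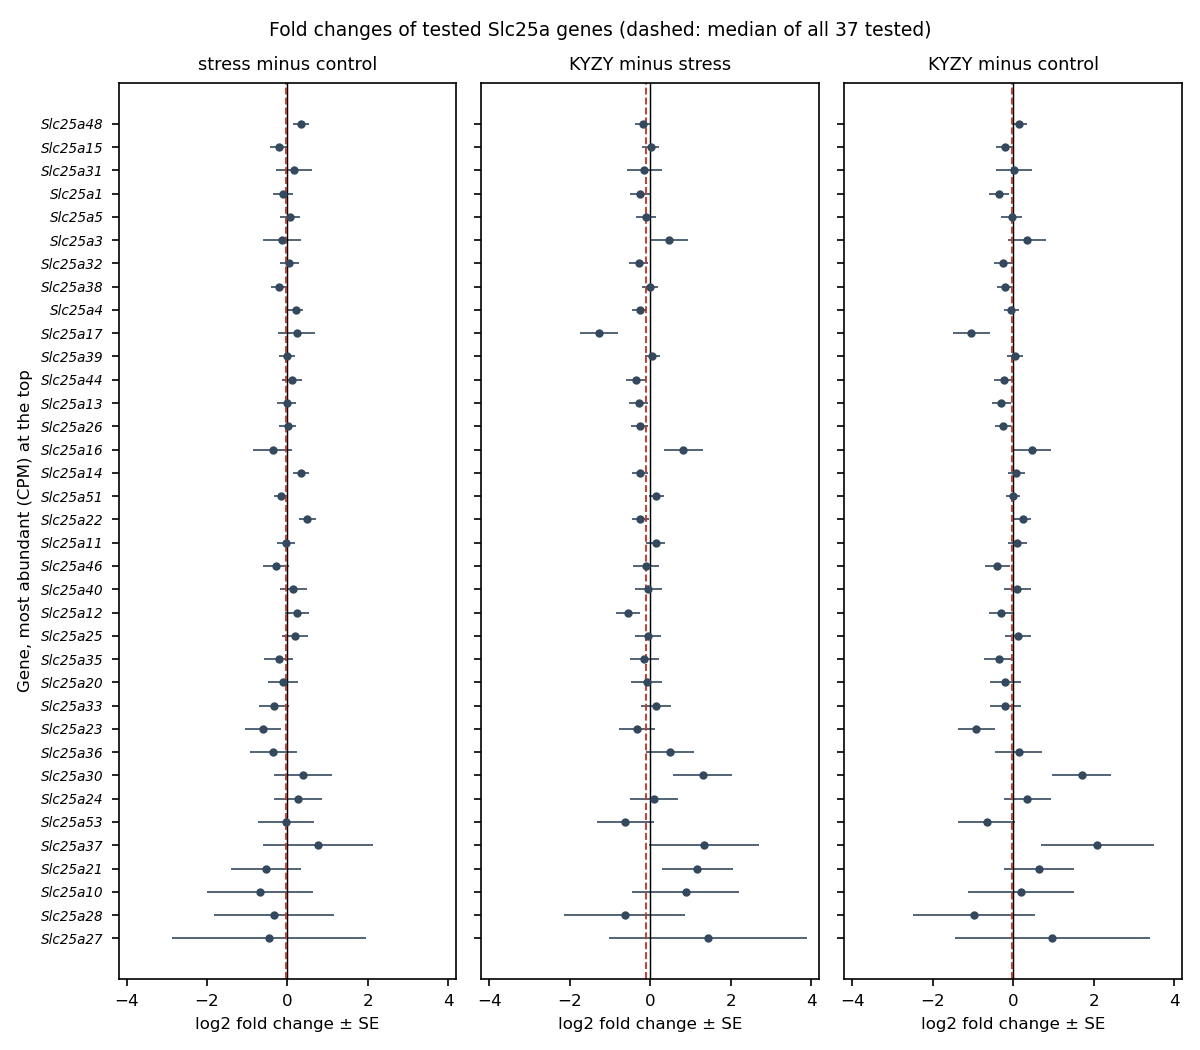
Log2 fold change with its standard error (horizontal axis) of the tested Slc25a genes described here, ordered by abundance in CPM, in the 3 comparisons; the dashed line is the median of all 37 tested. The medians lie at -0.03, -0.10 and -0.04, and Slc25a17 is the abundant carrier farthest from 0 in both comparisons with KYZY.

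Adenine nucleotide exchange, the swap of matrix ATP for cytosolic ADP, was represented by all 3 of its carriers in every library. Slc25a31 had 118.9, 53.3 and 73.8 CPM in control 1 to 3, 73.9, 51.2 and 150.3 CPM in stress 1 to 3, and 73.4, 116.2 and 59.3 CPM in KYZY 1 to 3. Each group held 1 library well above its other two, and the groups overlapped. Slc25a31 differed by 0.16 on the log2 scale (SE 0.44, unadjusted p = 0.720, edgeR) in stress against control and by -0.15 (SE 0.44, unadjusted p = 0.748, edgeR) in KYZY against stress.

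Slc25a5 was steadier, with 53.8, 47.2 and 56.6 CPM in control, 44.7, 42.6 and 77.5 CPM in stress and 47.7, 45.0 and 60.5 CPM in KYZY. Stress 3 was the highest library for Slc25a5 as it was for Slc25a31. The groups overlapped, and the log2 difference of Slc25a5 was 0.06 (SE 0.25, unadjusted p = 0.806, edgeR) in stress against control. GENCODE lists a transcribed processed pseudogene, Slc25a5-ps, on chromosome 14, which was not analysed here, and reads could have been split between the copies.

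Slc25a4, the heart and muscle ADP/ATP carrier ANT1, had 34.9, 33.2 and 30.8 CPM in control and 36.2, 41.0 and 36.7 CPM in stress. All 3 stress libraries were above all 3 control libraries for Slc25a4, with a log2 difference of 0.20 (SE 0.19, unadjusted p = 0.301, edgeR). In KYZY its values were 25.3, 36.6 and 33.5 CPM and overlapped with both other groups. On the scale of CPM per kb, Slc25a31 was 2.76 times and Slc25a5 2.21 times the level of Slc25a4, and each was the higher one in 9 of 9 libraries.

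The ATP-Mg/phosphate carriers, which set the size of the matrix adenine nucleotide pool under calcium control, were low. Slc25a25 had 3.13 ± 0.555 CPM in control, 3.56 ± 0.249 in stress and 3.40 ± 1.22 in KYZY (SD, n = 3, as for all group values that follow). Slc25a24 had 0.593 ± 0.298, 0.712 ± 0.196 and 0.761 ± 0.201 CPM in the same order. Slc25a41, a related carrier without the calcium-binding part, was at 0 in all 9 libraries.

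Slc25a23 of the same group had 2.22, 3.32 and 1.45 CPM in control, 2.07, 1.47 and 1.09 CPM in stress and 1.39, 1.57 and 0.734 CPM in KYZY. The groups overlapped, with control 2 the highest library and KYZY 3 the lowest. The log2 difference of Slc25a23 was -0.59 (SE 0.45, unadjusted p = 0.214, edgeR) in stress against control and -0.92 (SE 0.45, unadjusted p = 0.0694, edgeR) in KYZY against control.

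Among carriers of phosphate, nucleotides and cofactors, the phosphate and copper carrier Slc25a3 had 38.3, 33.4 and 68.3 CPM in control, 34.0, 37.5 and 57.1 CPM in stress and 29.7, 42.8 and 105.7 CPM in KYZY. Replicate 3 was the highest library of Slc25a3 in each group, and the groups overlapped. The pyrimidine nucleotide carrier Slc25a33 had 2.79 ± 0.412 CPM in control, 2.21 ± 0.982 in stress and 2.44 ± 0.377 in KYZY. Its paralog Slc25a36 had 1.69 ± 1.06, 1.33 ± 0.807 and 1.86 ± 0.128 CPM. On the scale of CPM per kb of merged exon, Slc25a33 was 7.76 times the level of Slc25a36, at 1.31 against 0.169, and was higher in 9 of 9 libraries. With length taken from the longest transcript the levels were 1.31 and 0.311 CPM per kb, so the size of this ratio depended on the length used. Of the exons of Slc25a33, 14.9% overlap the gene model Gm13068, and since the kit does not mark strand, reads there cannot be assigned with certainty.

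Slc25a17 carries cofactors across the peroxisomal membrane and is one of the few members outside mitochondria. It had 54.2, 36.2 and 13.4 CPM in control 1, 2 and 3, 37.7, 50.2 and 34.5 CPM in stress 1, 2 and 3, and 24.5, 13.8 and 12.3 CPM in KYZY 1, 2 and 3. All 3 KYZY libraries were below all 3 stress libraries, while control spanned nearly the whole range. The log2 difference was -1.27 (SE 0.47, unadjusted p = 0.0226, adjusted p = 0.935, edgeR) in KYZY against stress.

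The 3 lowest libraries of Slc25a17, at 12.3 to 13.8 CPM, were those with the high cumulus marker sum, and the other 6 had 24.5 to 54.2 CPM. Without control 3, stress 3, KYZY 2 and KYZY 3, which leaves KYZY 1 alone in its group, the log2 difference of Slc25a17 was -0.82 (unadjusted p = 0.0206, adjusted p = 0.434, edgeR) against stress. The adjusted p of that difference ran from 0.434 to 1.00 over the alternatives. In KYZY against control the log2 difference of Slc25a17 was -1.04 (SE 0.46, unadjusted p = 0.0516, edgeR) and -0.86 without the same 4 libraries. Without control 3 alone it was -1.40, and without control 1 alone it was -0.56.

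Slc25a16, a carrier linked to coenzyme A, went the other way across the same libraries. It had 7.57, 12.5 and 27.6 CPM in control, 13.5, 10.4 and 13.2 CPM in stress and 10.9, 28.3 and 26.4 CPM in KYZY. Control 3, KYZY 2 and KYZY 3 were at 26.4 CPM or more and the other 6 libraries at 13.5 CPM or less. Slc25a16 was the 1 tested carrier higher in all of these 3 libraries than in the other 6, a state shared by 11.5% of all genes, and Slc25a1, Slc25a12 and Slc25a17 were the 3 that were lower, a state shared by 6.76%. The log2 difference of Slc25a16 in KYZY against stress was 0.82 (SE 0.48, unadjusted p = 0.122, edgeR). Without the same 4 libraries, with KYZY 1 alone in its group, it was -0.12.

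Of the remaining cofactor carriers, the folate and flavin carrier Slc25a32 had 48.7 ± 12.6, 50.2 ± 3.90 and 41.0 ± 8.74 CPM in control, stress and KYZY.

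Slc25a26, which brings S-adenosylmethionine into mitochondria, had 18.1 ± 1.19 CPM in control, 18.1 ± 1.20 in stress and 15.2 ± 3.83 in KYZY. The mitochondrial NAD carrier Slc25a51 was the most even of the 18 carriers with a mean of 10 CPM or more. It had 14.6 ± 0.720, 13.1 ± 1.90 and 14.5 ± 0.732 CPM in control, stress and KYZY, and a ratio of 1.33 between the highest and the lowest library. Slc25a42, which carries coenzyme A, was under the count filter and reached 0.191 CPM in KYZY 2.

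The carboxylate carriers move tricarboxylic acid cycle intermediates. Slc25a1, which exports citrate for lipid synthesis, had 74.8, 60.9 and 44.0 CPM in control, 59.0, 56.5 and 51.9 CPM in stress and 55.7, 49.6 and 34.7 CPM in KYZY. The groups overlapped, and replicate 3 was the lowest library in each. The log2 difference of Slc25a1 was -0.10 (SE 0.24, unadjusted p = 0.686, edgeR) in stress against control and -0.36 (SE 0.24, unadjusted p = 0.172, edgeR) in KYZY against control. Like Slc25a17, Slc25a1 was lower in the 3 libraries with the high cumulus marker sum (34.7 to 49.6 CPM) than in the other 6 (51.9 to 74.8 CPM).

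The oxoglutarate/malate carrier Slc25a11, a part of the malate-aspartate shuttle, had 9.15 ± 1.28, 8.97 ± 1.39 and 9.82 ± 1.85 CPM in control, stress and KYZY. The dicarboxylate carrier Slc25a10 had 0.365 ± 0.329, 0.225 ± 0.142 and 0.418 ± 0.226 CPM. The oxodicarboxylate carrier Slc25a21 had 0.357 ± 0.279, 0.247 ± 0.149 and 0.557 ± 0.166 CPM. Both of the low carriers were near the detection floor, and their log2 differences had standard errors of 0.88 or more in stress against control.

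Amino acid carriers included the 1 gene with an unadjusted p under 0.05 in stress against control. Slc25a22, a glutamate carrier, had 10.3, 10.7 and 8.66 CPM in control, 12.5, 16.7 and 12.5 CPM in stress and 12.6, 12.5 and 9.91 CPM in KYZY. All 3 stress libraries were above all 3 control libraries, and KYZY lay across both ranges. The log2 difference was 0.49 (SE 0.21, unadjusted p = 0.0403, adjusted p = 1.00, edgeR).

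The estimate for Slc25a22 was the same, 0.49, without control 3, stress 3, KYZY 2 and KYZY 3, and it was 0.33 without stress 2, its highest library. Against stress, the log2 difference of Slc25a22 in KYZY was -0.25 (SE 0.21). The other glutamate carrier, Slc25a18, was under the count filter, with a highest value of 0.122 CPM.

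Slc25a15, which carries ornithine for the urea cycle and polyamine routes, had 155.8, 172.1 and 138.1 CPM in control, 114.3, 132.9 and 154.1 CPM in stress and 160.3, 109.2 and 134.5 CPM in KYZY. The groups overlapped, and the log2 difference was -0.22 (SE 0.22, unadjusted p = 0.346, edgeR) in stress against control and 0.01 (SE 0.22, unadjusted p = 0.966, edgeR) in KYZY against stress. Its paralog Slc25a2, an intronless copy, reached 0.117 CPM in control 3 and was under the count filter. The basic amino acid carrier Slc25a29 was also under the filter; it was at 0 in all 3 stress libraries and at 0.189, 0.029 and 0.184 CPM in KYZY, at or below the detection floor.

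The 2 aspartate/glutamate carriers, which drive the malate-aspartate shuttle, differed in level. On the scale of CPM per kb, Slc25a13 (citrin) was 8.64 times the level of Slc25a12 (aralar) and was higher in 9 of 9 libraries. Slc25a13 had 19.9 ± 4.16 CPM in control, 19.8 ± 2.53 in stress and 16.3 ± 4.04 in KYZY. Slc25a12 had 4.36, 4.85 and 3.40 CPM in control, 5.43, 5.40 and 3.97 CPM in stress and 4.00, 2.26 and 3.92 CPM in KYZY. KYZY 1 was above the lowest stress library and the other KYZY libraries were below it, and the log2 difference in KYZY against stress was -0.54 (SE 0.30, unadjusted p = 0.0989, edgeR). Slc25a12 was lower in the 3 libraries with the high cumulus marker sum, at 2.26 to 3.92 CPM, than in the other 6, at 3.97 to 5.43 CPM.

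Slc25a38, which supplies glycine for haem synthesis, had 45.3 ± 8.10, 39.2 ± 4.26 and 39.1 ± 1.62 CPM in control, stress and KYZY. Slc25a44, a branched-chain amino acid carrier, had 20.5, 26.4 and 16.2 CPM in control, 24.8, 27.6 and 16.5 CPM in stress and 19.5, 16.9 and 17.3 CPM in KYZY. Stress 3 lay below all KYZY libraries for Slc25a44, so the groups overlapped, and the log2 difference in KYZY against stress was -0.36 (SE 0.25, unadjusted p = 0.174, edgeR).

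The carnitine/acylcarnitine carrier Slc25a20, needed for fatty acid oxidation, had 2.81 ± 0.669, 2.60 ± 0.849 and 2.45 ± 0.901 CPM in control, stress and KYZY. The choline importer Slc25a48 had 199.6, 155.3 and 193.9 CPM in control, 220.9, 221.4 and 251.2 CPM in stress and 210.4, 214.2 and 186.7 CPM in KYZY. All 3 stress libraries were above all libraries of both other groups. The log2 difference of Slc25a48 was 0.34 (SE 0.20, unadjusted p = 0.118, adjusted p = 1.00, edgeR) in stress against control and -0.18 (SE 0.20, unadjusted p = 0.379, adjusted p = 0.935, edgeR) in KYZY against stress.

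For iron and glutathione, the glutathione carrier Slc25a39 was even, with 25.9 ± 1.52 CPM in control, 25.9 ± 3.72 in stress and 26.9 ± 4.86 in KYZY. Its paralog Slc25a40 had 4.18 ± 0.669, 4.64 ± 1.31 and 4.50 ± 1.76 CPM. On the scale of CPM per kb, Slc25a39 was 18.0 times the level of Slc25a40 and was higher in 9 of 9 libraries. The iron importers were low. Mitoferrin 2, Slc25a28, had 0.203 ± 0.107, 0.161 ± 0.0942 and 0.103 ± 0.103 CPM.

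Mitoferrin 1, Slc25a37, which serves haem synthesis in red cell precursors, had 0, 0.153 and 0.443 CPM in control, 0.061, 0.462 and 0.497 CPM in stress and 0.126, 1.60 and 0.836 CPM in KYZY. KYZY 2 and KYZY 3 were the highest libraries, and KYZY 1 lay inside the range of control. Blood and immune markers stood at 62.3, 12.4 and 0.805 CPM in KYZY 2, 3 and 1, and cumulus markers at 357, 686 and 36.4 CPM; their part in the values of Slc25a37 was not tested. The log2 difference of Slc25a37 in KYZY against control was 2.09 (SE 1.40, unadjusted p = 0.166, edgeR) on values close to the floor.

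Among the carriers named after uncoupling proteins, Slc25a14 (UCP5) was the abundant one, with 14.6, 12.0 and 16.0 CPM in control, 15.4, 20.5 and 18.1 CPM in stress and 16.5, 12.9 and 15.6 CPM in KYZY. Stress 1 lay below control 3, so the groups overlapped, while within same-numbered libraries stress was higher in all 3 pairs. Slc25a14 had a log2 difference of 0.34 (SE 0.20, unadjusted p = 0.127, edgeR) in stress against control, and with the replicate block in these 2 groups alone the unadjusted p was 0.149 (edgeR). Slc25a27 (UCP4) was at 0 in 5 libraries, with group means of 0.0828 ± 0.143, 0.0613 ± 0.106 and 0.167 ± 0.240 CPM.

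Slc25a30 (KMCP1) had 0.463, 0.802 and 1.20 CPM in control, 0.920, 0.680 and 1.66 CPM in stress and 0.426, 4.29 and 3.33 CPM in KYZY. KYZY 2 and KYZY 3 were the highest of the 9 libraries, and KYZY 1 was the lowest. The log2 difference of Slc25a30 was 1.70 (SE 0.74, unadjusted p = 0.0434, adjusted p = 0.996, edgeR) in KYZY against control and 1.30 (SE 0.73, unadjusted p = 0.104, edgeR) in KYZY against stress. Without control 3, stress 3, KYZY 2 and KYZY 3 these differences were -0.54 and -0.89. That fit leaves KYZY 1, the lowest library, alone in its group, so the turn in direction followed from the libraries left out. The part of the cumulus, blood and stroma markers in the values of Slc25a30, Slc25a16, Slc25a17, Slc25a12 and Slc25a1 was not tested.

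**Figure D3:**
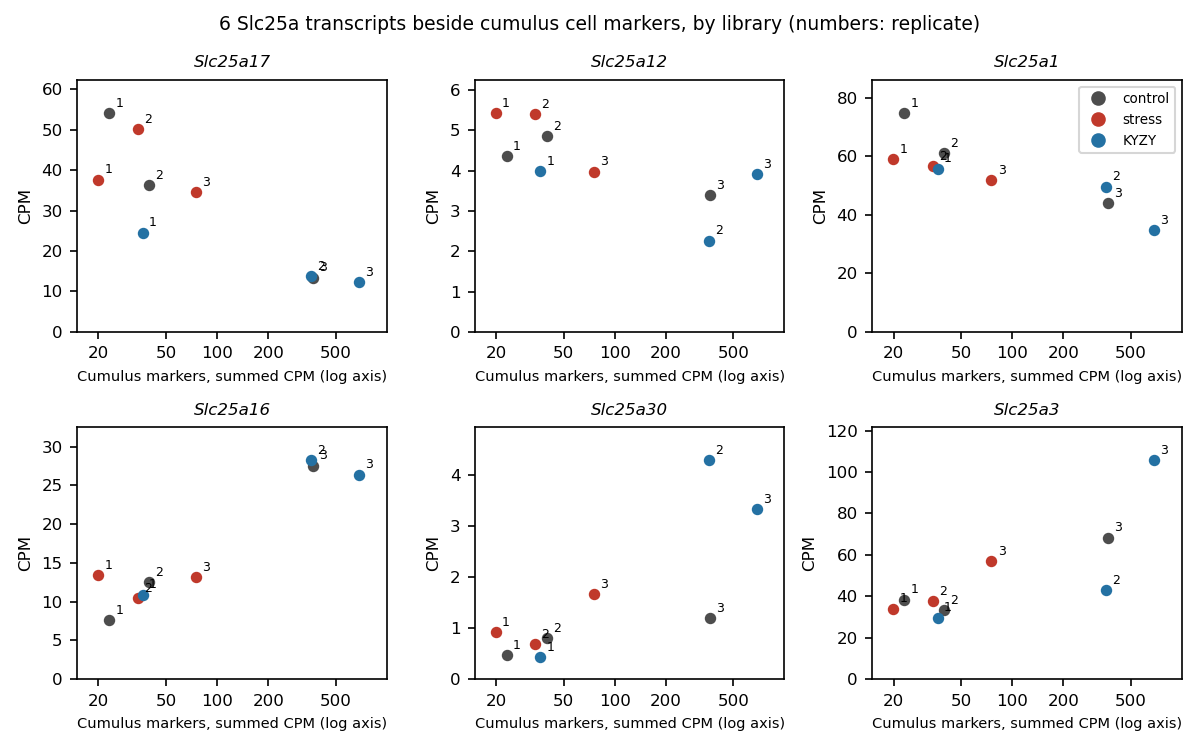
Level of 6 Slc25a transcripts (vertical axis, CPM) against the summed cumulus and granulosa markers of the same library (horizontal log axis, CPM), 1 point per library, coloured by group and numbered by replicate. Control 3, KYZY 2 and KYZY 3, at 357 to 686 CPM of markers, are the 3 lowest libraries for Slc25a17, Slc25a12 and Slc25a1 and the 3 highest for Slc25a16. For Slc25a30 and Slc25a3 these 3 libraries overlap with the other 6. Over all genes tested, 6.76% were lower and 11.5% higher in these 3 libraries than in the other 6.

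The outer membrane member Slc25a46, which takes part in mitochondrial dynamics, had 9.67 ± 3.23, 7.91 ± 2.17 and 7.36 ± 1.93 CPM in control, stress and KYZY. Members without an assigned role here were Slc25a35, with 3.53 ± 1.16, 3.04 ± 0.962 and 2.74 ± 0.534 CPM, and Slc25a53, with 0.643 ± 0.279, 0.631 ± 0.0751 and 0.409 ± 0.245 CPM. Of the exons of Slc25a35, 31.3% overlap Rangrf, and reads there cannot be assigned with certainty without strand. Slc25a34, Slc25a41 and Slc25a54 were at 0 in all 9 libraries. The other untested members, among them Slc25a43, Slc25a45 and Slc25a47, had values of 0.347 CPM or less.

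Of the 18 carriers with a mean of 10 CPM or more, 13 varied by less than 2-fold between the highest and the lowest of the 9 libraries. The other 5 were Slc25a1, Slc25a3, Slc25a16, Slc25a17 and Slc25a31. Slc25a17 had the widest range of them, 4.41-fold. Slc25a31 and Slc25a3 varied widely within every group, while the libraries of Slc25a17, Slc25a16 and Slc25a1 were split as given above.

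**Figure D4:**
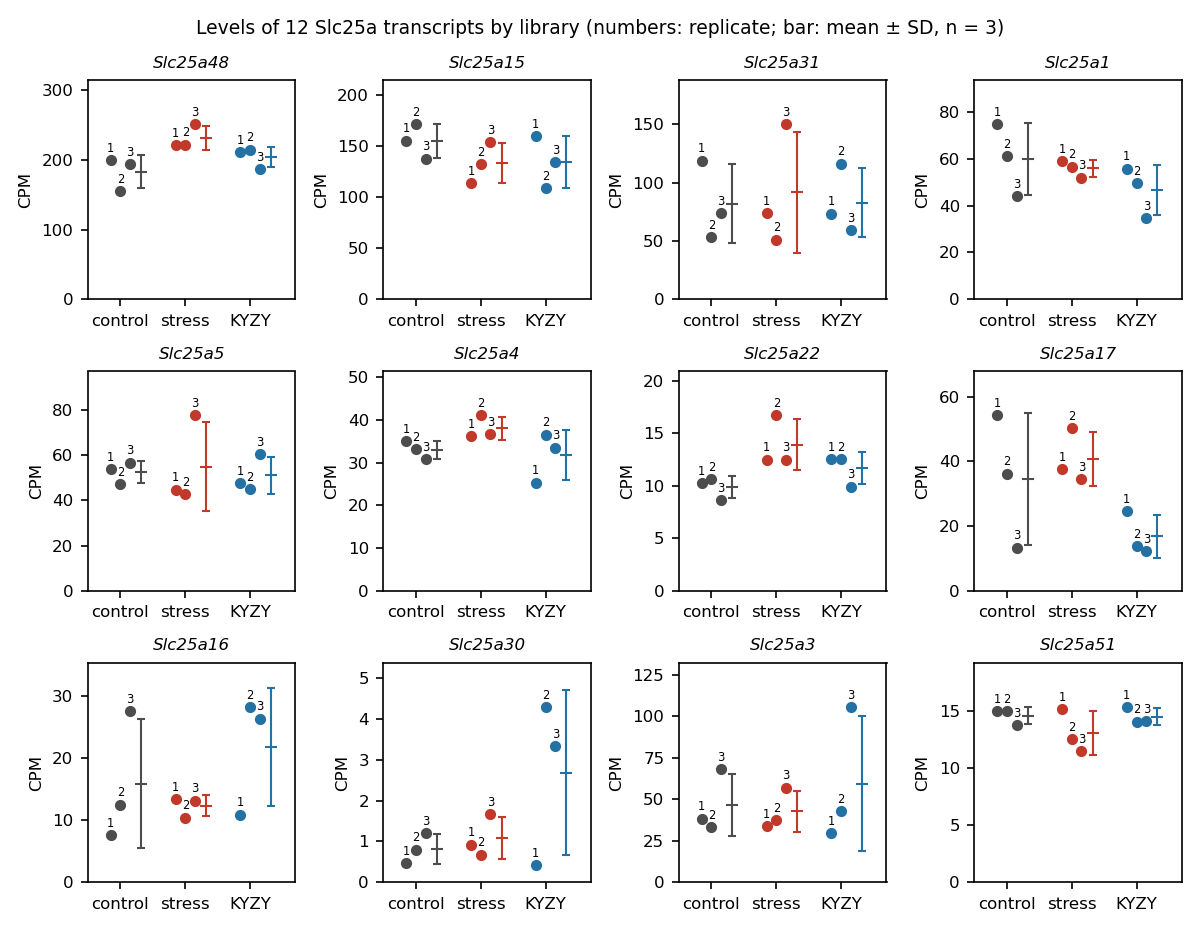
CPM of 12 Slc25a transcripts in each library (points, numbered by replicate) with the mean and SD of each group (n = 3) beside them, on linear axes from 0. The stress libraries of Slc25a48, Slc25a22 and Slc25a4 lie above all control libraries, and the KYZY libraries of Slc25a17 lie below all stress libraries. Over all genes tested, the groups did not overlap for 7.88% in stress against control and 9.19% in KYZY against stress.

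Carriers need the TOM and TIM22 import route to reach the inner membrane, and 16 genes of it were tested. In stress against control 1 of the 16 was higher and 15 were lower, with a median log2 difference of -0.47. Over all genes tested 54.0% were lower. Without control 3 the median was -0.03, with 7 higher and 9 lower. Without control 3, stress 3, KYZY 2 and KYZY 3, with KYZY 1 alone in its group, it was 0.35 (10 higher, 6 lower). Without stress 3 alone it was -0.25, and with the replicate block -0.23, each with 3 higher and 13 lower. This count therefore depended on the libraries used, control 3 among them. The part of the cumulus markers in it was not tested. The summed level of the import genes was 104.0 to 114.3 CPM in control, with control 3 the lowest, and 82.3 to 102.9 CPM in stress. Agk and Timm8b, the most abundant of them, overlapped between these groups. The smallest p belonged to Tomm22, a receptor of the outer membrane, with 7.87, 6.88 and 7.10 CPM in control and 4.40, 4.80 and 4.55 CPM in stress. The groups did not overlap for Tomm22, and the log2 difference was -0.67 (unadjusted p = 0.00919, adjusted p = 1.00, edgeR).

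In KYZY against stress 10 import genes were higher and 6 lower, with a median of 0.71, and in KYZY against control 8 were higher and 8 lower, with a median of 0.06. Without control 3, stress 3, KYZY 2 and KYZY 3, with KYZY 1 alone in its group, the median in KYZY against stress was -0.27. The carrier translocase Timm22 itself was close to the floor, at 0.673 CPM or less. No import gene passed the test in any of the 3 comparisons.

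Mitochondrial transporters outside the family were split evenly in stress against control, where 11 of 22 were higher and 11 lower with a median log2 difference of -0.01. In KYZY against stress 9 were higher and 13 lower (median -0.14), and in KYZY against control 10 and 12 (median -0.09). Micu2, a regulator of the calcium uniporter, had 22.6, 26.6 and 42.4 CPM in control, 61.2, 53.5 and 74.1 CPM in stress and 26.4, 47.3 and 45.7 CPM in KYZY. All 3 stress libraries of Micu2 were above all libraries of both other groups, with a log2 difference of 1.04 (unadjusted p = 0.00557, adjusted p = 1.00, edgeR) against control. Without control 3, stress 3, KYZY 2 and KYZY 3 it was 1.23. That fit leaves KYZY 1 alone in its group. Over all 17 alternatives the log2 difference of Micu2 in stress against control ran from 0.87 to 1.36. In the alternatives with more than 1 library in every group, its lowest adjusted p was 0.374 (DESeq2's Wald test). Mpc2, a subunit of the pyruvate carrier, had 7.41, 9.91 and 6.65 CPM in control and 5.61, 4.15 and 3.86 CPM in KYZY. The groups did not overlap for Mpc2, with a log2 difference of -0.82 (unadjusted p = 0.0236, adjusted p = 0.996, edgeR) in KYZY against control.

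Family proteins under other symbols summed to 13.4, 20.9 and 22.0 CPM in control 3, KYZY 2 and KYZY 3 and to 4.19 CPM or less in the other 6 libraries. The brown fat uncoupling protein Ucp1 was at 0 in all 9 libraries and Ucp3 in 8. Ucp2 had 0, 0.096 and 8.64 CPM in control, 0.110, 0.558 and 2.11 CPM in stress and 0, 16.2 and 14.3 CPM in KYZY. Its highest libraries were those with the high cumulus marker sum, followed by stress 3, and the groups overlapped.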

How the data were processed

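RNA of 9 MII oocyte libraries was made into cDNA by SMART-Seq v4 and into libraries by Tn5, per the labels' protocols, without molecular identifiers or strand. Per the submitters' processing notes, the tools were bcl2fastq 2.20, HISAT2, StringTie, Trim Galore and DESeq2, and the builds GRCm38 and mm10; the role of each is not given in the sources used here. The authors deposited 1 table per library of expected counts, whole numbers that are not normalized; the unit was read from the values. Values of 4 and 8 were in excess, so a read pair appeared to be worth about 4 units, and the floor was set at 3 read pairs (12 counts), for counting error only. Reads were amplified and carry no identifiers, so they do not count molecules one by one.

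Counts were fitted with edgeR 4.0.16 in R 4.3.3: TMM scaling, filterByExpr at 10 counts and a total of 15 (13890 genes kept), and a robust quasi-likelihood model of all 9 libraries with 6 residual degrees of freedom. Tests were 2-sided, and p was adjusted by Benjamini-Hochberg over all 13890 genes at 0.05. The common biological coefficient of variation was 0.611. CPM were scaled by TMM, and groups are given as mean and SD. Exon lengths and overlaps come from GENCODE M21 (GRCm38), where 47 of 47 members matched by symbol, and promoter windows come from RefSeq.

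Members and lists were chosen with earlier results of these data known. Levels per group are given for tested members. The values of 1 member are not reported here, and it is left out of the figures and counted in the totals. Folds and p-values are given for the 5 members of smallest unadjusted p in each comparison and the 5 of highest CPM per kb, and folds of Slc25a4 were added after its values were seen. On simulated data with 50 changed genes per fold among 13890, the test recovered 4%, 36% and 60% of genes changed 2-, 4- and 8-fold when stress was compared with control; 5 unchanged genes were called. In KYZY against stress it recovered 2%, 56% and 64%, and in KYZY against control 0%, 26% and 46%. The changed genes were drawn from all genes tested, so these rates are not rates for the carriers. In stress against control the median standard error was 0.40 over all genes and 0.32 over the carriers.

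Replicate numbers come from the titles. The labels do not say what a number marks. Deviations of same-numbered control and stress libraries correlated at 0.165, 0.376 and 0.345 across genes, and these numbers were read as pairs on that ground alone. Control 2 with stress 1, of unlike number, also gave 0.345. Same-numbered pairs with KYZY gave -0.196 to 0.643 and were not read as pairs, although control with KYZY gave 0.558 for replicate 1 and 0.643 for replicate 3. The pairing is therefore uncertain. The printed errors and p-values come from the fit without the pairing, and the replicate block is an alternative. No pair of libraries held identical values. Alternatives were RLE scaling, DESeq2 1.42.0, no filter, only the groups compared, a replicate block, counts divided by 4, leaving out each library in turn, and leaving out control 3, stress 3, KYZY 2 and KYZY 3, which had stood apart by cumulus markers in the earlier results. A replicate block in control and stress alone was added after seeing the data.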

Additional observations from a re-analysis of the deposited data

How the results depend on the processing

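No Slc25a gene was called under any alternative. The median log2 fold change of the tested carriers ran from -0.08 to 0.05 in stress against control, from -0.15 to 0.03 in KYZY against stress and from -0.18 to 0.01 in KYZY against control. Genes called over the whole table were 0 in each comparison. DESeq2 called 22, 13 and 1 in stress against control, KYZY against stress and KYZY against control. Leaving out control 3, stress 3, KYZY 2 and KYZY 3 gave 148, 115 and 119, with KYZY 1 assumed to vary like the other groups, and fitting only the 2 groups compared gave 1 in KYZY against stress. Leaving out 1 library gave 0 to 2, 0 to 1 and 0 to 3, the highest each time without control 3. The replicate block in the fit of all libraries called 0 genes in each comparison, and the block in control and stress alone called 1, no Slc25a gene. The cause of these changes was not tested. Values under 0.105 to 0.245 CPM could not be told from 0 at this depth.

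For 29 pairs of a named carrier and a comparison, 446 of 472 alternative values kept their direction and side of the threshold and 26 reversed, while 18 pairs never reversed. Without the same 4 libraries, the log2 difference in stress against control was -0.45 for Slc25a31 and -0.20 for Slc25a5. In KYZY against stress it was -0.89 for Slc25a30, -0.12 for Slc25a16, 0.24 for Slc25a31 and 0.14 for Slc25a5, and in KYZY against control -0.54 for Slc25a30 and -0.21 for Slc25a31. With RLE scaling and with DESeq2, Slc25a5 was 0.0053 in KYZY against control. Leaving out 1 library gave, in stress against control, -0.28 to 0.089 for Slc25a1, -0.39 to 0.53 for Slc25a31 and -0.27 to 0.21 for Slc25a5. In KYZY against stress it gave -0.14 to 0.14 for Slc25a15, -0.47 to 0.41 for Slc25a31 and -0.23 to 0.22 for Slc25a5, and in KYZY against control -0.31 to 0.38 for Slc25a31 and -0.17 to 0.045 for Slc25a5.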
